A study of Homo sapiens with 28 samples.

Results

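Expression of 10 genes that the transcription factor ATF4 is known to activate was followed over 24 RNA-seq libraries from 2 human CRC cell lines, MDST8 and LoVo. The 10 genes are the amino acid transporters SLC7A5, SLC7A1 and SLC7A11, the amino acid synthesis enzymes ASNS, PSAT1 and PHGDH, and the stress effectors CHAC1, TRIB3, DDIT3 and SESN2. They were chosen by name from 62703 genes with a row in both count tables, and a row was found for all 10. MDST8 gave 18 libraries, 3 from WT cells and 3 from each of 5 TWIST1 knockout (KO) clones made with CRISPR-Cas9 and named 1.1, 2.2, 3.2, 3.5 and 3.6. The labels sort these clones under TG1, TG2 and TG3, and clones 3.2, 3.5 and 3.6 share TG3. Per the study's methods the edited cells were sorted as single cells, so a value of a clone stands for that clone and not for the knockout in general. LoVo gave 6 libraries, 3 labelled shRNA control and 3 labelled TWIST1 shRNA. Per the study's methods the TWIST1 shRNA was delivered by lentivirus. The titles of the control libraries name only control LoVo cells, and a legend in the study's supplement gives LoVo WT cells as the reference. Whether the control cells also received a lentivirus is therefore not known. Per the labels, all cells were grown in DMEM with 10% FBS, whereas the study's methods name DMEM, F-12 and RPMI without saying which line had which. The labels do not say whether replicates were separate cultures, so p-values measure the spread between these libraries, which may be technical.

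ATF4 is the effector of the integrated stress response. The kinases EIF2AK4 (GCN2, amino acid shortage), EIF2AK3 (PERK, endoplasmic reticulum stress), EIF2AK1 (HRI, heme shortage and mitochondrial stress) and EIF2AK2 (PKR, double-stranded RNA) phosphorylate the translation factor eIF2α, which lowers protein synthesis while ATF4 mRNA is translated more. ATF4 then binds DNA together with C/EBP proteins and raises genes for amino acid import and synthesis, glutathione supply and, under lasting stress, cell death. Because ATF4 is controlled largely at translation, RNA-seq counts do not measure its protein or its activity directly.

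The libraries held 17252883 to 22217009 counts in MDST8 and 16567606 to 20889529 in LoVo. The TWIST1 counts run against the LoVo labels, with 73 to 93 counts in each library labelled TWIST1 shRNA and 0 in each labelled shRNA control, and every LoVo direction below follows the labels. The study also assessed the LoVo knockdown by qRT-PCR of TWIST1 mRNA and by western blot, neither of which is analysed here. In MDST8, TWIST1 mRNA was 39.8 to 51.7 CPM (counts scaled by library size with TMM factors) in WT and 28.2 to 56.6 CPM over the clones, and it was called lower in clone 2.2 alone. The study assessed the knockout by Sanger sequencing and western blot, also not analysed here. Counts per gene measure neither the edit nor the protein. LoVo carried all 10 colorectal epithelial markers at a mean of at least 1 RPM (counts scaled by the library's total alone), summing to 7193 to 7353 RPM (labelled shRNA control) and 3898 to 4372 RPM (labelled TWIST1 shRNA). All 10 had the lower mean with the label TWIST1 shRNA, and while CDH1 went from 261 to 192 RPM, KRT20 went from 45.9 to 2.55 RPM, VIL1 from 36.5 to 2.01 RPM and CDX2 from 250.2 to 32.2 RPM. Of the mesenchymal markers, VIM went from 105 to 11.98 RPM, and the 5 summed to 166 to 173 and 43.1 to 49.5 RPM in these groups. MDST8 WT carried 2 of these 10, KRT8 and KRT18, with 0 counts of CDH1, CDX1, CDX2, GPA33 and LGALS4, and all 5 mesenchymal markers. Mitochondrial genes took 3.49 to 3.96% of counts with the label shRNA control, and 10.9, 6.24 and 5.47% in replicates 1, 2 and 3 labelled TWIST1 shRNA. The part of these differences in the results below was not tested.

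ATF4 and its C/EBP partners bind the C/EBP-ATF response element, so the promoter sequences of the genes were searched for its core, TGATGNAA. RefSeq promoters on GRCh38.p14, each from 250 bases before to 50 bases after the start, were matched for 9 of the 10 genes, all but SLC7A11, and the first listed start was used. The core was found on either strand in 3 of the 9, ASNS, CHAC1 and SLC7A1, and in 3.67% of the 27305 promoters of that length. Any E-box, CANNTG, the family of motifs that TWIST1 dimers bind, lay in 5 of the 9 (PSAT1, PHGDH, CHAC1, TRIB3 and SLC7A5) and in 68.9% of all promoters. The E-box CATCTG, which is one form of CANNTG, lay in none of the 9 and in 14.8% of all promoters. A match is a description of the sequence and not evidence of binding. The first 280 bases of the windows of the 3 genes with the core are shown because they hold it, in capitals, and that of SLC7A5 because this gene changed most in MDST8, with its CANNTG words in capitals.
ASNS, chr7:97872379-97872658, minus strand: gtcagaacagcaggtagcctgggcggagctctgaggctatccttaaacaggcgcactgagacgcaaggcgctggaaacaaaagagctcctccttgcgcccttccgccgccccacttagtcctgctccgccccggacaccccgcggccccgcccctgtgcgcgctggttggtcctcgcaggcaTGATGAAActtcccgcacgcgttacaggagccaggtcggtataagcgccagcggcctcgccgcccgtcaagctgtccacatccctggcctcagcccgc
CHAC1, chr15:40953221-40953500, plus strand: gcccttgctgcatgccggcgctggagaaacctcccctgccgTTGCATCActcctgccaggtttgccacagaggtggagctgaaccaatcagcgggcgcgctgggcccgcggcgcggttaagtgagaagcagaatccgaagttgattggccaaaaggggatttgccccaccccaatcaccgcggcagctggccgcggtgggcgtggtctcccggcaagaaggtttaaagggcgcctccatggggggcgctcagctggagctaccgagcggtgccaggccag
SLC7A1, chr13:29595659-29595938, minus strand: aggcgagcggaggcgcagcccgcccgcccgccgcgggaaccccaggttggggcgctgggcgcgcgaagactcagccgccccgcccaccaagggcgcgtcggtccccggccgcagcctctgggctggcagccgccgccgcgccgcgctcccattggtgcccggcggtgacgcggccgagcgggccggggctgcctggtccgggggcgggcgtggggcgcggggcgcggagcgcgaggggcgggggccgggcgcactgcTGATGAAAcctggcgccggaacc
SLC7A5, chr16:87869478-87869757, minus strand: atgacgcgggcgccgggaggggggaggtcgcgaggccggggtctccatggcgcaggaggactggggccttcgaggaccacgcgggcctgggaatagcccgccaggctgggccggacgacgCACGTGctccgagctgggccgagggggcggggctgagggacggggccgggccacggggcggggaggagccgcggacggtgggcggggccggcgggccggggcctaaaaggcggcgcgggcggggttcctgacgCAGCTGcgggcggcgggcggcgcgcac
The core begins 68 bases before the start in ASNS and 7 bases after it in SLC7A1, reading TGATGAAA in both. In CHAC1 it lies on the opposite strand, 209 bases before the start, and reads TGATGCAA there. A second RefSeq start of ASNS, further into the gene, gave a window without the core. The E-boxes of SLC7A5 are CACGTG, 130 bases before the start, and CAGCTG, 3 bases after it.

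Across the 8 groups, every one of the 10 genes was higher in both LoVo groups than in any MDST8 group. Over all genes tested, 30.6% were called lower in MDST8 WT than in LoVo labelled shRNA control. The share of all genes with this order over the 8 groups was not computed. In LoVo, 9 of the 10 had a higher mean with the label TWIST1 shRNA than with the label shRNA control, PHGDH being the exception. In MDST8 the transporters and PSAT1 had lower means than WT in every clone, whereas the CHAC1 and DDIT3 libraries overlapped WT in all clones but 3.6. Genes were tested with edgeR's quasi-likelihood test over all genes, and a call needed a log2 fold change beyond 0.58 in either direction (1.5-fold) and an adjusted p-value (Benjamini-Hochberg) under 0.05. SE stands for the standard error of a log2 fold change, taken as its absolute size divided by the square root of the test's F statistic. All 10 passed the filter on low counts in every fit. Fewer cells of a type and less RNA per cell cannot be told apart in such bulk libraries.

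**Figure D1:**
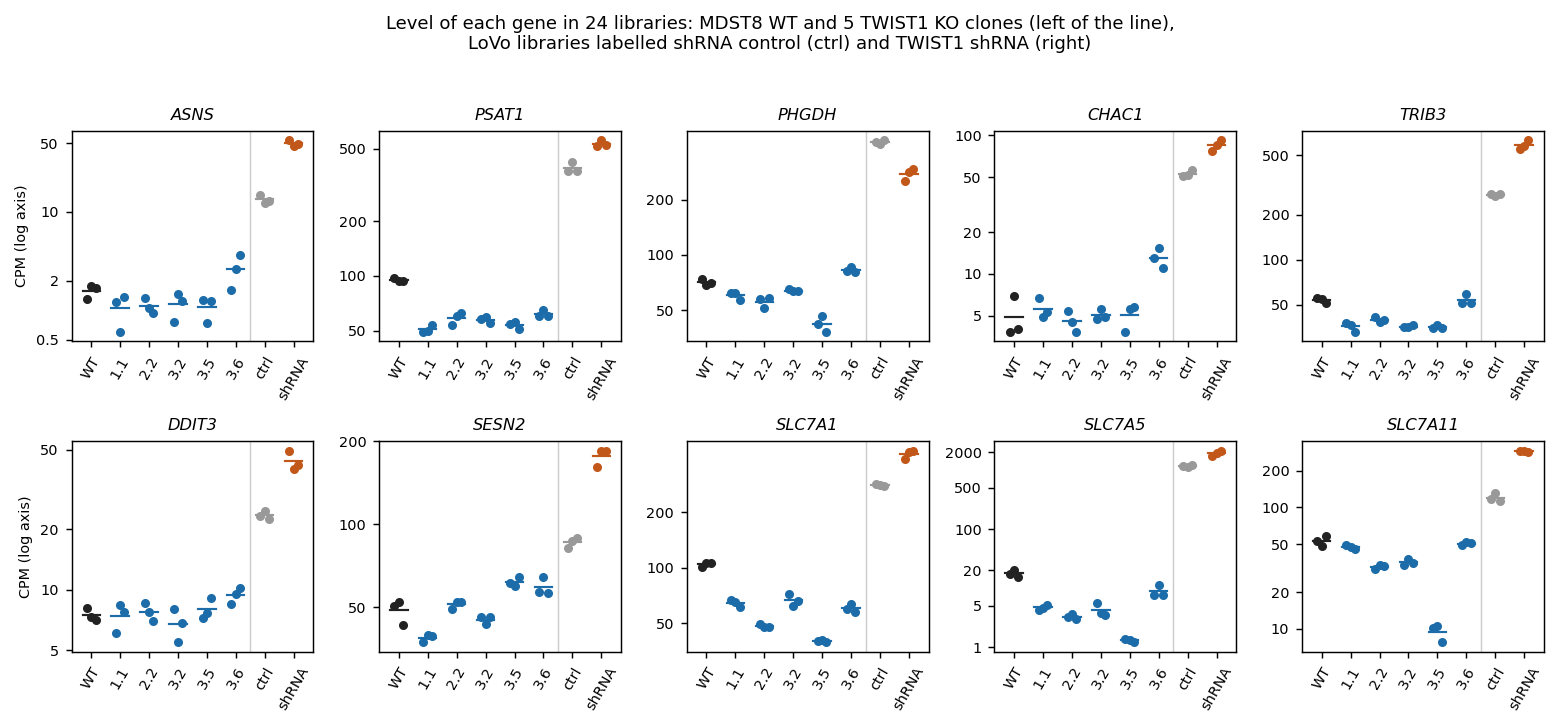
TMM-normalized CPM (log axis) of the 10 genes in each of the 24 libraries, with 3 points and a line at the mean for each of the 8 groups. SLC7A5 sits between 15.5 and 20.3 CPM in MDST8 WT, between 1.2 and 1.40 CPM in clone 3.5 and between 1144 and 2109 CPM in the 6 LoVo libraries.

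Among the amino acid transporters, SLC7A5 fell further than any other of the 10 genes in every clone. SLC7A5 (LAT1, ENSG00000103257.9, chr16:87830023-87869507, minus strand of hg38) carries leucine and other large neutral amino acids into cells. It was 17.6, 20.3 and 15.5 CPM in WT replicates A, B and C. Clone 3.5 had 1.40, 1.31 and 1.2 CPM, from 24 to 25 counts per library. All 3 libraries of clone 3.5 lay far below WT, and they were also the lowest of the 24. The other clones had 4.30 to 5.17 CPM (clone 1.1), 3.04 to 3.62 CPM (clone 2.2), 3.503 to 5.49 CPM (clone 3.2) and 7.63 to 11.5 CPM (clone 3.6). None of them overlapped WT, and clone 3.6 also lay above the other clones. Against WT, the log2 fold change of clone 3.5 was -3.78 (SE 0.19, adjusted p = 2.09e-18). Those of clones 2.2, 3.2 and 1.1 were -2.45 (SE 0.16), -2.09 (SE 0.15) and -1.93 (SE 0.15), with adjusted p = 3.22e-15, 3.92e-14 and 1.85e-13. Clone 3.6 had the smallest change, -1.001 (SE 0.13, adjusted p = 5.01e-08).

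SLC7A1 (CAT1, ENSG00000139514.13, chr13:29509414-29595688, minus strand), the main importer of arginine and lysine, was 101, 107 and 106 CPM in WT replicates A, B and C. It was 39.3 to 40.6 CPM in clone 3.5, 47.7 to 49.3 CPM in clone 2.2 and 57.8 to 71.8 CPM over clones 1.1, 3.2 and 3.6. Every clone library lay below every WT library, with log2 fold changes from -0.65 (clone 3.2, SE 0.05, adjusted p = 1.07e-13) to -1.39 (clone 3.5, 0.05, adjusted p = 9.22e-22). SLC7A5 and SLC7A1 belong to a list of genes that the study chose on these same libraries together with its TWIST1 ChIP-seq data. Their fall is therefore not independent evidence of a direction, nor are their TWIST1 peaks independent evidence of binding. The study gives that list as lower in the LoVo knockdown cells too. As labelled, both genes were instead higher in LoVo with TWIST1 shRNA, by 0.73 and 0.576 on the log2 scale.

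SLC7A11 (xCT, ENSG00000151012.13, chr4:138164097-138242349, minus strand) imports cystine in exchange for glutamate, which feeds glutathione synthesis. It was 52.6, 48.6 and 58.1 CPM in WT and 10.2, 10.5 and 7.75 CPM in clone 3.5, where it fell by 2.50 on the log2 scale (SE 0.08, adjusted p = 3.37e-23). Clones 2.2 (30.9 to 33.3 CPM) and 3.2 (33.5 to 37.9 CPM) lay between these. Their log2 fold changes were -0.72 (SE 0.07, adjusted p = 4.80e-11) and -0.59 (0.07, adjusted p = 2.74e-09). The value in clone 3.2 is at the threshold and was no longer called in 11 alternatives, at -0.50 to -0.58, among them without WT replicates A or C or clone 3.2 replicates A or C. Clones 1.1 and 3.6 overlapped WT, at 45.2 to 49.4 and 48.8 to 51.5 CPM, and were not called.

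Of the synthesis enzymes, PSAT1 (ENSG00000135069.14, chr9:78297125-78330093, plus strand), which makes phosphoserine on the way to serine, fell in all 5 clones. WT had 97.3, 93.7 and 94.2 CPM, and the 15 clone libraries had 49.2 to 64.8 CPM. The log2 fold changes ran from -0.63 (clone 3.6, SE 0.05, adjusted p = 3.67e-13) to -0.91 (clone 1.1, 0.05, adjusted p = 7.40e-17), and in clone 3.6 PSAT1 was not called under limma on log2(count + 1), at -0.50. PHGDH (ENSG00000092621.13, chr1:119648411-119744218, plus strand), the enzyme of the first step of serine synthesis, was 73.8, 68.3 and 70.3 CPM in WT. It was called lower in clone 3.5 alone, at 42.3, 46.5 and 38.1 CPM (log2 fold change -0.75, SE 0.06, adjusted p = 3.25e-13). In clones 1.1, 2.2 and 3.2 all libraries also lay below WT, but by less than the size threshold. The log2 fold change was -0.24 in clone 1.1 (adjusted p = 0.000443), -0.36 in clone 2.2 (adjusted p = 1.91e-06) and -0.15 in clone 3.2 (adjusted p = 0.0188). In clone 3.6 it was 80.6 to 85.5 CPM, above all WT libraries but short of the threshold, at a log2 fold change of 0.22 (adjusted p = 0.000523).

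ASNS (asparagine synthetase, ENSG00000070669.17, chr7:97851677-97872542, minus strand) had only 25, 35 and 34 counts in the WT libraries. Its main transcript shares 2374 of its 2385 bases with a read-through gene on the same strand, ENSG00000284707, and a fragment that overlaps 2 genes was not counted, so the ASNS counts are those of the remaining exons and say little of its true level. Clone 3.6 had 1.61, 2.65 and 3.63 CPM against 1.31, 1.75 and 1.70 CPM in WT, and the groups overlapped. ASNS was called higher there, by 0.72 on the log2 scale (SE 0.28, adjusted p = 0.0212), but not without clone 3.6 replicate C (0.41, adjusted p = 0.226) or WT replicate A (0.61, adjusted p = 0.0811). The other clones were at 0.601 to 1.46 CPM and were not called, although all 3 libraries of clone 3.5 lay below WT.

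Among the stress effectors, CHAC1 rose in clone 3.6 and TRIB3 fell in 3 clones. CHAC1 (ENSG00000128965.13, chr15:40952962-40956512, plus strand), which degrades glutathione, was 3.82, 6.95 and 3.999 CPM in WT and 13, 15.3 and 11 CPM in clone 3.6. In clone 3.6 it rose by 1.40 on the log2 scale (SE 0.17, adjusted p = 5.67e-09), and in the other clones, at 3.82 to 6.71 CPM, it overlapped WT. TRIB3 (ENSG00000101255.12, chr20:362835-397559, plus strand), a pseudokinase that feeds back on ATF4, was 55.4, 54.8 and 51.7 CPM in WT and 33.0 to 37.9 CPM over clones 1.1, 3.2 and 3.5. It fell in these 3 clones by 0.59, 0.60 and 0.61 on the log2 scale (SE 0.06 in each, adjusted p = 1.21e-10, 1.20e-10 and 9.68e-11). These values lie just past the threshold. Without WT replicate A none of the 3 was called, at -0.57, -0.57 and -0.58, and clones 1.1 and 3.2 were also not called without WT replicate B, nor clone 1.1 without its replicate C (-0.54). In clone 2.2 TRIB3 had a log2 fold change of -0.45 and in clone 3.6 of -0.01, and neither was called.

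DDIT3 (CHOP, ENSG00000175197.13, chr12:57516588-57521737, minus strand), the transcription factor of stress-induced cell death, and SESN2 (sestrin 2, ENSG00000130766.5, chr1:28259518-28282491, plus strand), which lowers mTORC1 activity when leucine is scarce, were called in no clone. DDIT3 was 7.05 to 8.06 CPM in WT and 8.52 to 10.2 CPM in clone 3.6, all above WT but short of the threshold, at 0.33 on the log2 scale (SE 0.13). Its other clones ran from 5.46 to 9.05 CPM. Of the main DDIT3 transcript, 35.9% is shared with other genes, chiefly MARS1 on the opposite strand, and strand was not used in counting. SESN2 was 50.6, 52.3 and 43.2 CPM in WT, 37.2 to 39.7 CPM in clone 1.1 and 59.6 to 64.3 CPM in clone 3.5. These clones lay on opposite sides of WT, with log2 fold changes of -0.34 (SE 0.06) and 0.33 (0.06).

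**Figure D2:**
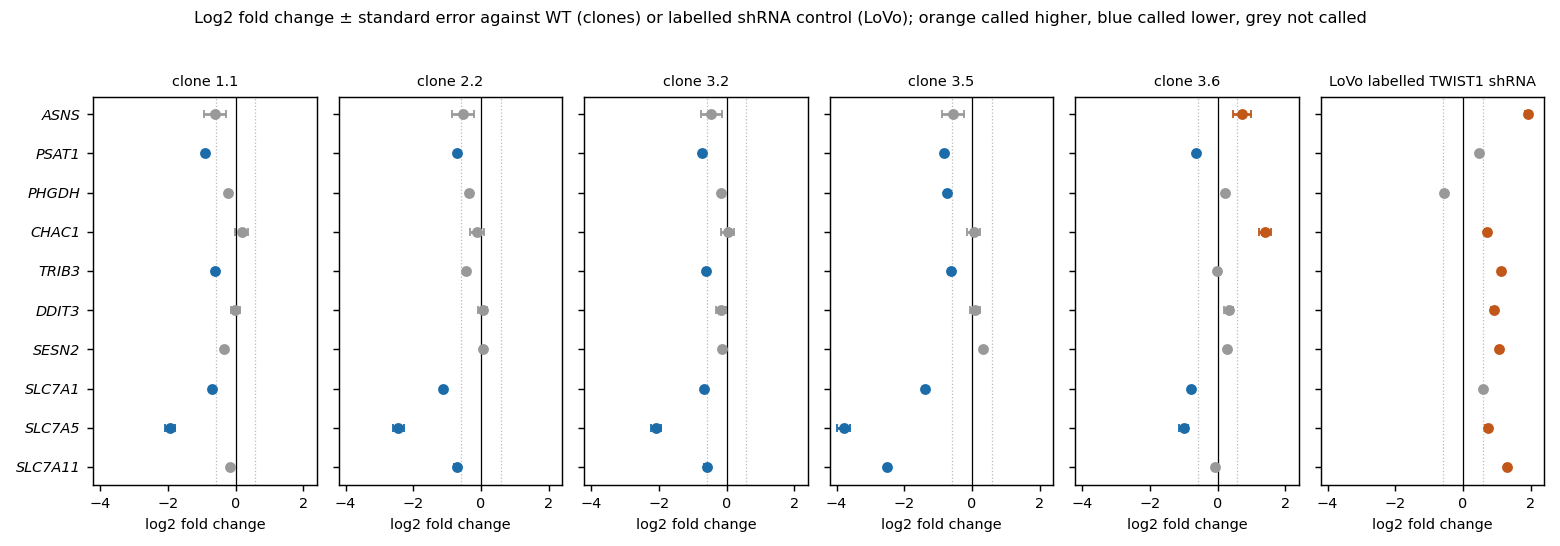
Log2 fold change with its SE for the 10 genes in each clone against WT and in LoVo libraries labelled TWIST1 shRNA against labelled shRNA control, with dotted lines at the threshold of 0.58. SLC7A5 runs from -3.78 (clone 3.5) to -1.001 (clone 3.6) in MDST8 and stands at 0.73 in LoVo.

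In counts, clone 1.1 had 4 of the 10 genes called, all lower, where 19.5% of all 13706 genes tested were called, 7.49% lower and 12% higher. Clone 2.2 also had 4 lower (14.7% of all genes called, 6.64% lower and 8.05% higher), clone 3.2 had 5 lower (17% called, 6.09% lower and 10.9% higher, and 3 lower without WT replicate A) and clone 3.5 had 6 lower (18.5% called, 7.25% lower and 11.2% higher). Clone 3.6 had 3 lower and 2 higher, where 27% of all genes were called, 11.7% lower and 15.3% higher. SLC7A5, SLC7A1 and PSAT1 were lower in all 5 clones, as were 1.06% of all genes tested. The median log2 fold change of the 10 genes was -0.47, -0.49, -0.52 and -0.68 in clones 1.1, 2.2, 3.2 and 3.5, respectively, and 0.11 in clone 3.6. Over all genes tested the median lay between -0.01 and 0.00 in each clone. The 5 comparisons share the 3 WT libraries.

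The clones also differed from each other. By an F test over the 5 clones, 8 of the 10 genes differed with a range of log2 fold changes above 0.58, where 32% of all genes did. The range was 2.78 for SLC7A5 (adjusted p = 5.43e-13), 2.42 for SLC7A11 (adjusted p = 2.25e-22) and 1.52 for CHAC1 (adjusted p = 3.20e-10). The ranges of PSAT1 (0.28) and DDIT3 (0.49) were below the threshold, though that of DDIT3 passed it without clone 3.2 replicate A (0.63), and that of TRIB3 (0.60) missed it without clone 3.6 replicate B (0.54). Clone 3.5 had the lowest mean of SLC7A5, SLC7A1, SLC7A11 and PHGDH, and clone 3.6 the highest mean of ASNS, PHGDH, CHAC1 and DDIT3, among the 6 MDST8 groups.

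In LoVo, 7 of the 10 genes were called higher with the label TWIST1 shRNA and none lower, where 52.7% of all 14270 genes tested were called, 26.6% higher and 26.1% lower. The median log2 fold change was 0.82 over the 10 genes and 0.01 over all genes. ASNS was 14.9, 12.5 and 12.9 CPM in replicates A, B and C labelled shRNA control and 53.7, 46.6 and 49.4 CPM in replicates 1, 2 and 3 labelled TWIST1 shRNA. Its log2 fold change of 1.92 (SE 0.09, adjusted p = 1.13e-11) was the largest of the 10, with the same limit of counting as in MDST8. SLC7A11 was 118, 131 and 112 CPM against 292, 291 and 286 CPM (log2 fold change 1.29, SE 0.06, adjusted p = 9.92e-12). The LoVo groups did not overlap in either gene.

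TRIB3 rose from 273, 268 and 273 CPM to 544, 575 and 627 CPM, by 1.12 on the log2 scale (SE 0.06, adjusted p = 4.83e-11). SESN2 rose from 82.2, 87.0 and 88.8 CPM to 162, 185 and 185 CPM, by 1.06 (SE 0.07, adjusted p = 2.09e-10). DDIT3 and CHAC1 completed the effectors, all 4 of which were called higher in LoVo. DDIT3 had 22.5 to 24.6 against 40.1 to 49.3 CPM (0.91, SE 0.09, adjusted p = 8.33e-08). CHAC1 had 50.8 to 56.0 against 77.5 to 92.3 CPM (0.71, SE 0.07, adjusted p = 1.57e-07).

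SLC7A5, which was low in MDST8, had 18553 to 22012 counts per library labelled shRNA control. It was at 1709 to 2109 CPM against 1144 to 1215 CPM (log2 fold change 0.73, SE 0.07, adjusted p = 1.24e-07). SLC7A1, at 278 to 284 against 389 to 432 CPM, stood just under the threshold at 0.576 (SE 0.06) and was called with DESeq2 (0.59), with RLE factors (0.59) and with upper-quartile factors (0.67). Without replicate 1 labelled TWIST1 shRNA, the library with 10.9% mitochondrial counts, SLC7A1 was called at 0.65, so that 8 of the 10 were called. PSAT1 (375 to 424 against 517 to 556 CPM, log2 fold change 0.46) was not called. PHGDH went the other way, at 403 to 422 against 251.5 to 292 CPM and -0.56 on the log2 scale (SE 0.06), short of the threshold. It was called lower without a filter on low counts (-0.62) and without replicate 3 labelled TWIST1 shRNA (-0.59).

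The effects in the cell lines were compared directly, as the LoVo effect minus the mean effect of the 5 clones in a fit of all 24 libraries. As labelled, the difference was called for 8 of the 10 genes, all towards higher values in LoVo, where 50.7% of all 14185 genes were called and 26% in this direction. It was 2.96 for SLC7A5 (SE 0.12, adjusted p = 1.18e-20), 2.18 for ASNS (0.28, adjusted p = 1.61e-08) and 2.07 for SLC7A11 (0.08, adjusted p = 5.27e-22). For PHGDH the difference was -0.33 (SE 0.07) and for CHAC1 0.38 (0.18, adjusted p = 0.0621), and neither was called. Since the TWIST1 counts run against the LoVo labels, the fit was repeated with these labels exchanged, which turns every LoVo effect but not every difference. Then 7 of the 10 genes were called, 2 towards higher values in LoVo and 5 towards lower ones, where 50.1% of all genes were called, 24.8% higher and 25.3% lower. SLC7A5 still differed towards higher values in LoVo, by 1.53 (SE 0.12, adjusted p = 4.77e-13), and PHGDH was now called at 0.83. ASNS (-1.62), SESN2 (-1.09), CHAC1 (-1.01), DDIT3 (-0.97) and TRIB3 (-0.66) were called in the other direction, and PSAT1 (0.31), SLC7A1 (0.37) and SLC7A11 (-0.47) were not called.

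Between the lines, all 10 genes were lower in MDST8 WT than in LoVo labelled shRNA control, where 64.6% of all genes were called, 30.6% lower and 34% higher. SLC7A5 was 66.2-fold lower (log2 fold change -6.05, SE 0.09, adjusted p = 6.57e-34). CHAC1 was 10.7-fold lower (-3.42, SE 0.14, adjusted p = 1.51e-21) and SESN2 1.78-fold lower (-0.83, 0.06, adjusted p = 4.45e-14), the smallest difference of the 10. Against the LoVo libraries labelled TWIST1 shRNA, all 10 were also lower in MDST8 WT, where 59.6% of all genes were called, 29.1% lower and 30.6% higher. There SLC7A5 was 108-fold lower, CHAC1 17.3-fold and SESN2 3.66-fold, the smallest difference again. Cell line, library batch and any difference in culture cannot be told apart here. Ranks per kb of exon depend on the length used, which here is that of all annotated exons of a gene. For PHGDH this is 9187 bp against 1866 bp in its main transcript, and for PSAT1 it is 2206 bp in both. The scale may thus understate PHGDH. On it, PSAT1 was the highest of the 10 in MDST8 WT, at 43.1 ± 0.891 CPM per kb (SD, n = 3). SLC7A5 was the highest in the LoVo libraries labelled shRNA control, at 247 ± 7.71 CPM per kb (SD, n = 3), where PSAT1 was second at 178 ± 12.3 (SD, n = 3). ASNS was the lowest in both, with the limit of counting given above.

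The mRNA of ATF4 itself was called in no clone and not in LoVo. It was 246 ± 10.9 CPM in MDST8 WT and 210 ± 3.51 to 310 ± 14.7 CPM over the clones, and 737 ± 13.5 against 669 ± 7.51 CPM in LoVo (SD, n = 3 each). On the log2 scale this was 0.33 in clone 3.6, -0.24 in clone 2.2 and -0.12 in LoVo. SLC3A2, the heavy chain that SLC7A5 and SLC7A11 need to reach the membrane, was not called in the clones (-0.44 to -0.18) and rose in LoVo by 0.80 (SE 0.06, adjusted p = 5.68e-09). Of the eIF2α kinases none was called in a clone, with log2 fold changes from -0.58 (EIF2AK1) to 0.35 (EIF2AK4). In LoVo EIF2AK4 (-1.25), EIF2AK2 (-0.72) and EIF2AK1 (-0.63) fell and EIF2AK3 was not called (0.45). In the list of 7 sensors and feedback genes, EIF2S1, which encodes eIF2α, fell in 4 clones (-0.75 to -0.40 over the 5), and PPP1R15A (GADD34), which helps to reverse its phosphorylation, rose in LoVo by 0.96.

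**Figure D3:**
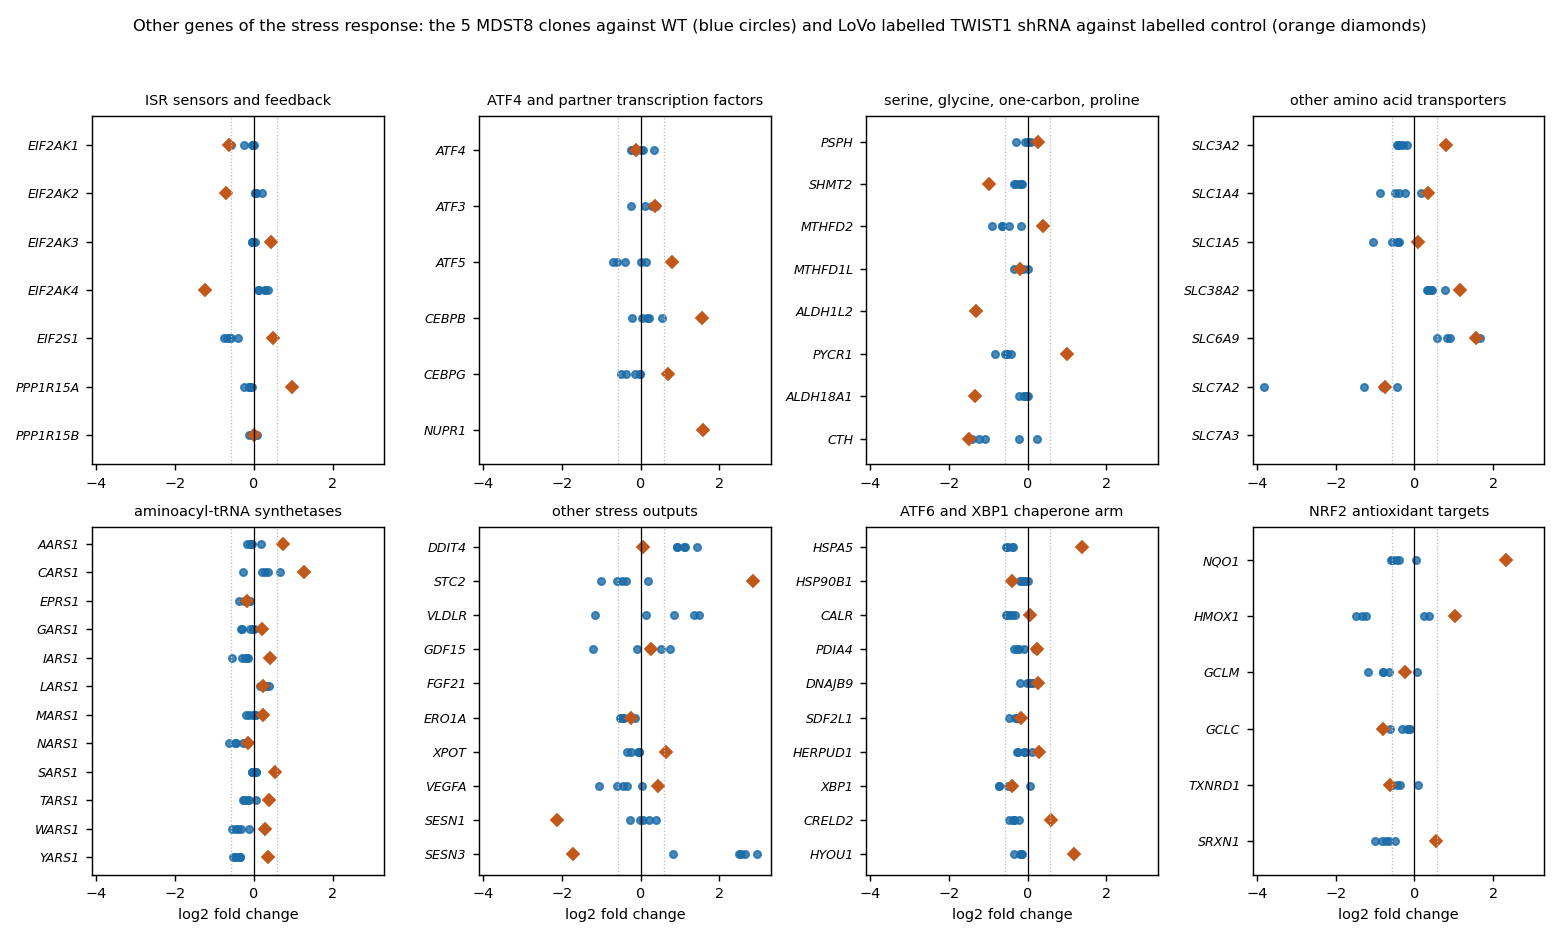
Log2 fold changes of the 66 other genes of the stress response, in 8 lists, for the 5 clones against WT (circles) and LoVo labelled TWIST1 shRNA against labelled shRNA control (diamonds), with dotted lines at 0.58; a gene without a symbol was not tested. SESN3 lies at 0.81 to 2.95 in the clones and at -1.73 in LoVo, and STC2 at 2.85 in LoVo.

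Among ATF4 and its 5 partner factors, ATF5 fell in 2 clones, and in LoVo 4 of 6 rose, led by NUPR1 (1.58), CEBPB (1.54) and ATF5 (0.80). NUPR1 was not tested in the clones. Over all genes tested, 26.6% were called higher and 26.1% lower in LoVo. In a clone 8.05 to 15.3% of all genes were called higher and 6.09 to 11.7% lower. Of the 8 other genes of serine, glycine, one-carbon and proline synthesis, MTHFD2, the mitochondrial one-carbon enzyme, and CTH, which makes cysteine, each fell in 3 clones, with log2 fold changes of -0.90 to -0.16 and -1.40 to 0.23 over the 5. None of the 7 genes of this list that were tested in the clones rose in one, and ALDH1L2 was not tested there. In LoVo 1 of the 8 rose and 4 fell, with CTH (-1.48), ALDH18A1 (-1.33) and ALDH1L2 (-1.31) the furthest. The median of this list in LoVo was -0.59, on the other side of 0 from that of the 10 genes.

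Of the other amino acid transporters SLC6A9, a glycine transporter, rose in 4 clones (0.58 to 1.66 over the 5) and in LoVo (1.58). SLC7A2, a further cationic amino acid transporter, fell in 4 clones (-3.83 to -0.45 over the 5) and in LoVo (-0.75). SLC38A2, which carries small neutral amino acids, rose in LoVo by 1.16. Of the 12 aminoacyl-tRNA synthetases, which charge tRNAs with amino acids, 1 was higher and 1 lower in clone 3.6 and none was called in the other clones. In LoVo 2 of the 12 rose, CARS1 (1.27) and AARS1 (0.75). In the chaperone arm of the unfolded protein response, driven by ATF6 and XBP1, none of 10 genes rose in a clone, and XBP1 fell in clones 2.2 and 3.5. In LoVo 3 of the 10 rose, HSPA5 (BiP, 1.39), HYOU1 (1.19) and CRELD2 (0.58), near the share of all genes called higher. SLC7A11 is also a known target of NRF2. Of the 6 listed NRF2 targets, 4 fell in clones 1.1, 3.2 and 3.6, 2 in clone 3.5 and none in clone 2.2. Over all genes, 6.09 to 11.7% were called lower in a clone. GCLM and SRXN1 each fell in 4 clones and HMOX1 in 3, and in LoVo NQO1 (2.32) and HMOX1 (1.04) rose, while GCLC (-0.80) and 1 other gene of the list fell.

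Over the 18 MDST8 libraries, the genes most like each of the 10 were found by Pearson's r of log2 CPM among 13705 other genes. The 18 libraries fall into 6 groups, so these values are a description with no test. Nearest to SLC7A5 were MCUB (r = 0.964), ANP32A (0.949) and SLBP (0.948), and nearest to SLC7A11 were CSAG1 (0.950), MAGEA12 (0.949) and NFATC2 (0.944). PHGDH was nearest to SLC1A4 (0.961), TRIB3 to MTHFD2 (0.940), PSAT1 to HMGN2 (0.960), SLC7A1 to ARHGAP10 (0.963), SESN2 to NPAS2 (0.926) and CHAC1 to MPG (0.916). For DDIT3 the nearest gene, POMT1, had r = 0.755, and for ASNS the nearest, ENSG00000266947, had r = 0.804. Among the 10 themselves, SLC7A5 and SLC7A1 had r = 0.905 and SLC7A11 and PHGDH had 0.878, whereas SLC7A5 and SESN2 had -0.20.

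The TWIST1 ChIP-seq data hold 1 peak list per cell line, from WT cells per the labels, so its values have no replicates. A peak was listed within 3000 bp of the gene's 5' end for 9 of the 10 genes in MDST8, all but SLC7A11, where 76.5% of all genes tested had one. In LoVo it was 5 of the 10 (ASNS, PSAT1, PHGDH, SLC7A1 and SLC7A5), where 58.2% of all genes had one. TWIST1 had 0 counts in each LoVo RNA-seq library labelled shRNA control. Whether the LoVo peaks reflect TWIST1 was not tested. The study gives a western blot of the pull-down in both lines, which is not analysed here. The authors kept peaks at an unadjusted p-value below 0.05. The 19 MDST8 and 8 LoVo peaks at these genes had fold enrichments of 1.78 to 3.14 and 1.94 to 2.80, against medians of 2.29 and 2.25 over the whole lists. Their lowest q-values were 0.332 and 0.751, so that none of these peaks passed a q-value of 0.05.

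The peak with the smallest p-value lay upstream of ASNS in MDST8, at chr7:97873886-97874149, with its summit 1447 bp before the 5' end, a fold enrichment of 3.14 and a p-value of 9.42e-05. SLC7A5 had 1 peak in each line, with its summit 1852 bp (MDST8) and 1089 bp (LoVo) before its 5' end, and with fold enrichments of 3.02 and 2.24. The MDST8 peak spans chr16:87871142-87871512 and the LoVo peak chr16:87870468-87870743, and they do not overlap. SLC7A1 had a peak in each line with its summit 535 bp (MDST8) and 620 bp (LoVo) upstream, and these overlapped, at chr13:29596043-29596288 and chr13:29595809-29596426. SLC7A5 and SLC7A1 are on the study's list, which was chosen in part on these ChIP-seq data, so their peaks are not independent evidence. For TRIB3 and PHGDH the 5' end of the annotated gene lies far upstream of the RefSeq start used for the promoter sequences. With the RefSeq starts, a choice made after the data were seen, 9 of the 9 matched genes had a peak in MDST8 and 5 in LoVo, where 80.1% and 61.3% of all genes matched had one.

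**Figure D4:**
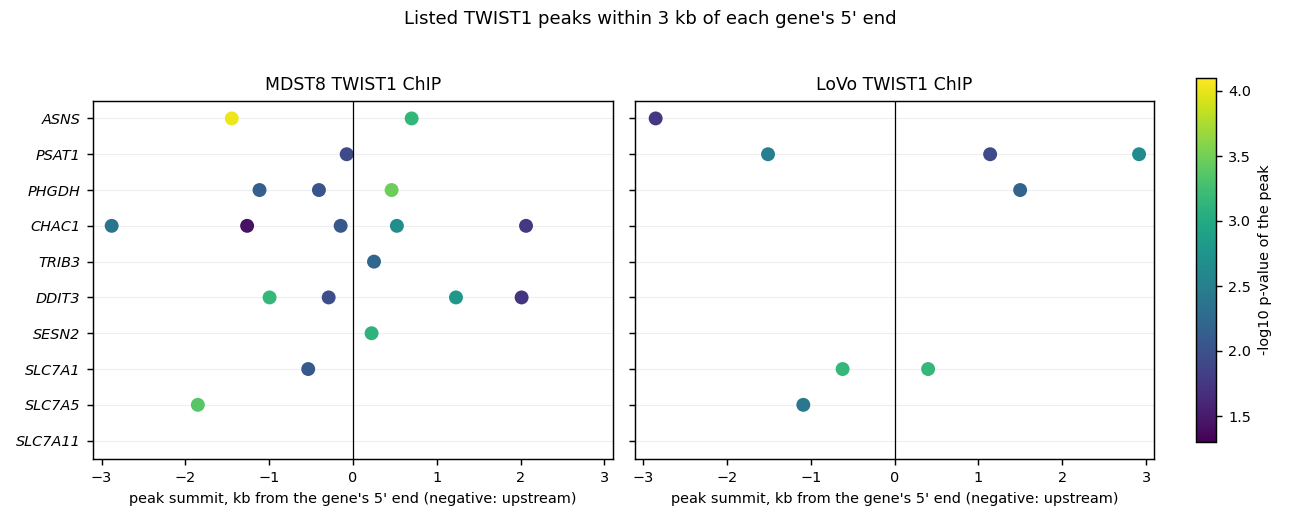
Summits of the listed TWIST1 peaks within 3 kb of the 5' end of each of the 10 genes in MDST8 and LoVo, against their distance from that end in kb, coloured by the -log10 p-value of the peak. MDST8 has 19 peaks at 9 genes, LoVo 8 peaks at 5 genes, and SLC7A11 has none in either.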

How the data were processed

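RNA-seq reads were trimmed, aligned to hg38 and counted by the authors with Trim Galore 0.6.6, HISAT2 2.1.0 and featureCounts 2.0.0, per the submitters' processing notes, on GENCODE v43 genes. The deposited values are counts of fragments per gene, without normalization, and the exon length in bp (another deposited value, used for CPM per kb). Strand was not used in counting, and a fragment overlapping several genes was left uncounted. For ChIP-seq the authors used Bowtie2 2.4.5 and MACS2 2.2.7.1, and deposited per peak a score (not used here), a fold enrichment, which is a ratio over the local background, −log10 p- and q-values and the summit's offset, another value in bp. Peaks and genes were both read as hg38.

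Genes were kept at a geometric mean of RPM + 1, minus 1, of at least 1, so that 13706 genes were tested in MDST8, 14270 for LoVo and 14185 over both lines. Counts were compared with edgeR 4.0.16 (TMM, quasi-likelihood test, Benjamini-Hochberg adjustment over all genes tested) in fits of 18, 6 and 24 libraries. The study used limma on log2 counts, which was kept as an alternative because a count model fits counts. CPM values come from a single scaling of all 24 libraries. The tests were checked on simulated counts in which 200 genes per comparison were changed by 1 on the log2 scale. Of these, 87.5 to 96% were called in the right direction over the comparisons between groups. Fewer genes changed there than were called in these data, so scaling under wide change was not checked. Alternatives were DESeq2 1.42.0, limma 3.58.1, other scalings and filters, smaller fits, a replicate block, each library left out in turn, and other peak windows and thresholds. Peak counts with RefSeq starts and a fit with the LoVo labels exchanged were added after the data were seen. All 10 genes were named in every comparison. Genes of the 8 pathway lists were named where they were among the 3 with the largest change of a list among those called in at least 3 clones, or among those called in LoVo, and ATF4, SLC3A2 and the eIF2α kinases always. XBP1 was named after its values were seen. A gene of the lists is not reported here. The genes and lists were chosen with earlier results of these data known. Immune and endothelial markers summed to at most 1.42 and 1.43 RPM in every library. Fibroblast markers summed to 311 to 1292 RPM in MDST8, and to 4.64 to 6.44 RPM in LoVo labelled shRNA control against 56.0 to 81.8 RPM labelled TWIST1 shRNA. COL1A1 made up most of these sums, at means of 318 to 1198 RPM over the MDST8 groups. In LoVo its means were 3.025 RPM (labelled shRNA control) and 66.5 RPM (labelled TWIST1 shRNA). COL1A2, COL3A1, PDGFRB and DCN had means of at most 4.11 RPM in every group.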

Additional observations from a re-analysis of the deposited data

Results flagged for a closer look

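The effect in LoVo, as labelled, differed from the mean effect of the 5 MDST8 clones for 8 of the 10 genes and for 24 of the 33 other named genes tested in both lines, by edgeR's quasi-likelihood test of the difference in the fit of all 24 libraries (adjusted p-values at most 5.95e-06 among the 8 and at most 0.00321 among the 24). On the log2 scale the difference, LoVo minus clones, was ASNS (2.18), PSAT1 (1.199), TRIB3 (1.54), DDIT3 (0.83), SESN2 (0.99), SLC7A1 (1.49), SLC7A5 (2.96) and SLC7A11 (2.07). Each of these 8 was positive with any of the 24 libraries left out. Among the other named genes it was positive for EIF2S1 (1.08), PPP1R15A (1.07), ATF5 (1.09), CEBPB (1.37), MTHFD2 (0.94), SLC3A2 (1.12), SLC38A2 (0.68), SLC7A2 (0.66), AARS1 (0.76), CARS1 (0.99), STC2 (3.28), HSPA5 (1.83), CRELD2 (0.92), HYOU1 (1.37), NQO1 (2.69), HMOX1 (1.70) and SRXN1 (1.26). It was negative for EIF2AK2 (-0.81), EIF2AK4 (-1.51), ALDH18A1 (-1.26), CTH (-0.77), DDIT4 (-1.07), SESN1 (-2.21) and SESN3 (-4.04). The share of all 14185 genes that differed was 50.7%. Apart from XBP1 and those always named, the other named genes were picked for a call in LoVo or in at least 3 clones. Their count can therefore not be set against that share. The values follow the LoVo labels, which the TWIST1 counts run against. With these labels exchanged, 1 of the 8 and 2 of the 24 kept their sign and their call, 2 and 4 kept the sign alone, and 5 and 18 changed sign, 4 and 14 of them with a call. Cell line, method of TWIST1 depletion and library batch cannot be told apart.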

How the results depend on the processing

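Of 1580 values of the 10 genes under the alternatives and with each library left out in turn, 1515 kept their direction and their side of the threshold. Another 28 lost their call, 25 of them with an absolute log2 fold change still above 0.5, and 7 gained one. The sign changed in 23, none of them called in either fit and none above 0.23 in size. With the LoVo labels exchanged, a choice made after the data were seen, 7 values of the difference between the lines reversed, ASNS (-1.62), PHGDH (0.83), CHAC1 (-1.01), TRIB3 (-0.66), DDIT3 (-0.97), SESN2 (-1.09) and SLC7A11 (-0.47). Of 170 counts, 161 stayed within 1.5 times. Limma on log2(count + 1), unscaled for library size as the study's methods read, gave 3 called genes in clone 3.2 and 3 in clone 3.6, where it moved the median of all genes by 0.13, and edgeR with upper-quartile factors gave 3 in clone 3.2. The cause was not tested. Leaving out 1 library gave 3 to 5 called genes in clone 3.2, 3 without WT replicate A, where TRIB3 and SLC7A11 lost their calls. In MDST8 WT against LoVo, that limma setting moved the median of all genes by 0.19, and all 10 genes stayed lower.

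At a peak p-value threshold of 0.001, 5 of the 10 genes had a promoter peak in MDST8 (28.3% of all genes) and 1 in LoVo (18.8%). With a q-value of at most 0.05 it was 0 in both (0.642% and 0.35%), and within 1000 bp it was 8 in MDST8 (53.4%) and 3 in LoVo (32.4%). These settings leave fewer peaks or a shorter window.

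Same-lettered MDST8 libraries did not deviate together (r of their deviations from -0.12 to 0.10), so the letters were not taken as pairs. A replicate block left the counts at 4, 4, 5, 6 and 5 called genes in clones 1.1, 2.2, 3.2, 3.5 and 3.6, and at 8 differing among the clones. LoVo groups share no replicate labels.

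Of the 10 genes, depth limits ASNS most, at 13 to 79 counts per MDST8 library. The counts of SLC7A5 in clone 3.5 (24 to 25) also limit the size of its change. Among the other named genes, CTH had 9 to 54 counts per MDST8 library and SLC7A2 had 10 to 18 in clone 2.2. SLC6A9 had 23 to 27 counts in MDST8 WT, and NUPR1 had 6 to 27 in LoVo labelled shRNA control. The sizes of their changes are limited in the same way.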

Other observations

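The sestrins, which hold back mTORC1 when amino acids are short or p53 or FOXO factors are active, moved apart. SESN3 was 4.17 ± 1.02 CPM in MDST8 WT and rose in all 5 clones, from 7.39 ± 0.793 CPM in clone 2.2 to 32.4 ± 1.69 CPM in clone 1.1 (SD, n = 3 each), while 3.17% of all genes rose in all 5. In LoVo it fell from 49.8 ± 1.70 to 14.8 ± 1.52 CPM (SD, n = 3 each). SESN1 was called in no clone and fell in LoVo by 2.11 on the log2 scale, where SESN2 rose by 1.06. DDIT4 (REDD1), a further mTORC1 inhibitor that ATF4 and other factors raise, was 7.83 ± 0.649 CPM in WT, rose in all 5 clones (14.8 ± 2.61 to 21.4 ± 0.475 CPM, SD, n = 3 each) and was not called in LoVo, at a log2 fold change of 0.05.

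VLDLR rose in 3 clones and fell in 1, with log2 fold changes from -1.17 to 1.49. STC2, a secreted stress glycoprotein, fell in 2 clones and rose in LoVo by 2.85.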
